A study of Rattus norvegicus with 18 samples.

Results

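Neurotrophin and GDNF signalling was represented by 8 genes, of 13811 genes that the annotation of both array types names: the receptor genes Ntrk2, Ntrk3, Ngfr, Ret, Gfra1 and Gfra2 and the ligand genes Bdnf and Ntf3. Every probe set annotated with exactly 1 of these symbols was taken, which gave 17 probe sets, 15 on the first array type (array A) and 2 on the second (array B). Expression was measured in O4+ cells (4 replicates) and A2B5+ cells (5 replicates) of male rats aged 7 postnatal days, sorted by flow cytometry from dissociated whole brain and labelled as single O4+ or single A2B5+ cells. O4 recognises sulfatide and related lipids of late oligodendrocyte progenitors and oligodendrocytes, and A2B5 recognises gangliosides of glial progenitors and some neurons. Each replicate came from a litter of 10 pups, so it pools animals, and every replicate has an array of each type. The labels name no transgene, treatment or culture step. For array B they name whole brain as the source, and populations were taken from the sample titles. On probe sets that both types share, the O4+ replicate numbers did not match across types (0 of 4), so an O4+ number names an array within its own type only. O4+ numbers 1, 2, 3 and 4 of array A correlated best with 3, 4, 1 and 2 of array B (Pearson r = 0.84, 0.94, 0.80 and 0.89).

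Neurotrophins are secreted growth factors that bind 2 kinds of receptor. Each Trk receptor tyrosine kinase prefers particular ligands, with BDNF binding TrkB (the product of Ntrk2) and NT-3 (Ntf3) binding TrkC (Ntrk3), while p75 (Ngfr) binds all of them. GDNF family ligands bind a GPI-anchored coreceptor, GFRα1 (Gfra1) for GDNF and GFRα2 (Gfra2) for neurturin, and the complex activates the tyrosine kinase Ret. NT-3 supports the division and survival of cultured oligodendrocyte progenitors, BDNF acts on myelination, and astrocytes express TrkB mainly in a truncated form without the kinase domain.

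The values are ratios that the authors deposited, in which each probe set stands relative to a value of its own, so levels of different genes or probe sets cannot be compared. The reading of small differences depends on the scale of the arrays. On array A the 2910 probe sets with a median ratio below 1 shared a pattern, with a median log2 ratio of -0.52 in O4+ arrays and -0.85 in A2B5+ arrays, a difference of 0.33. On array B that difference was 0.07. Once the shared pattern was subtracted, the residual SD over 9 arrays had a median of 0.066 in these low probe sets of array A and 0.40 in its other probe sets. The 90th percentile among the low ones was 0.235, a mark chosen after seeing the data, and 7 of the 17 probe sets lay below it. Markers went with the labels, with 11 of 13 tested probe sets of oligodendrocyte lineage markers higher in O4+ cells. The other 2, for the progenitor markers Pdgfra and Cspg4, were lower.

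The TrkB gene Ntrk2 was lower in O4+ cells, and no other of the 8 genes was called lower on the deposited scale. Ret 1370989_at and Ntrk3 also had negative differences (-1.26 and -0.82), which were not called (limma adjusted p = 0.057 and 0.18). That Ret probe set was called lower when the arrays were scaled on their low probe sets. Among the small rises in O4+ cells, that of Gfra2 held under each scale tried, and those of Ngfr, Bdnf, Ntf3, 1 Gfra1 probe set and 1 Ret probe set were lost on other scales. Probe sets entered the limma test when 4 or more of the 9 arrays had a ratio of 1 or above, which 13 of the 17 did, with all 8 genes among them. Each of the 13 had a median ratio of 1 over the 9 arrays, so a ratio of 1 was its middle value and not a measure of level. A call needed an adjusted p under 0.05. On array A, 6 of 11 tested probe sets were called higher and 2 lower, where 32.5% of all tested probe sets were higher and 14.7% lower. On array B, 0 of 2 were higher and 1 was lower, where 9.93% of all were higher and 13.8% lower. Scaling the arrays on their low probe sets, chosen after seeing the data, left 1 rise and 4 falls among the 13, where 12.6% of all tested probe sets were higher and 22.5% lower on array A, and 8.41% and 15.6% on array B. Centring each array on its median left 1 rise and 3 falls, where the shares were 18.6% higher and 17.9% lower on array A, and 9.99% and 14% on array B. The O4+ and A2B5+ values did not overlap in 8 of the 11 probe sets of array A, 6 higher and 2 lower, where 33.3% of all tested probe sets were higher without overlap and 10.7% lower. On array B this held for 1 of 2, which was lower, where the shares were 12.5% higher and 13% lower. The median difference over the 13 was 0.31 log2 units on the deposited scale and -0.02 after that scaling, beside 0.26 and -0.07 for all tested probe sets of array A and 0.04 and -0.03 for those of array B. The count of rises was unstable to single arrays: it was 2 without A2B5+ replicate 1, 2 or 3 or O4+ replicate 4, and 3 without O4+ replicate 1 or 3. Without A2B5+ replicate 5 there were 5 falls in place of 3.

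**Figure D1:**
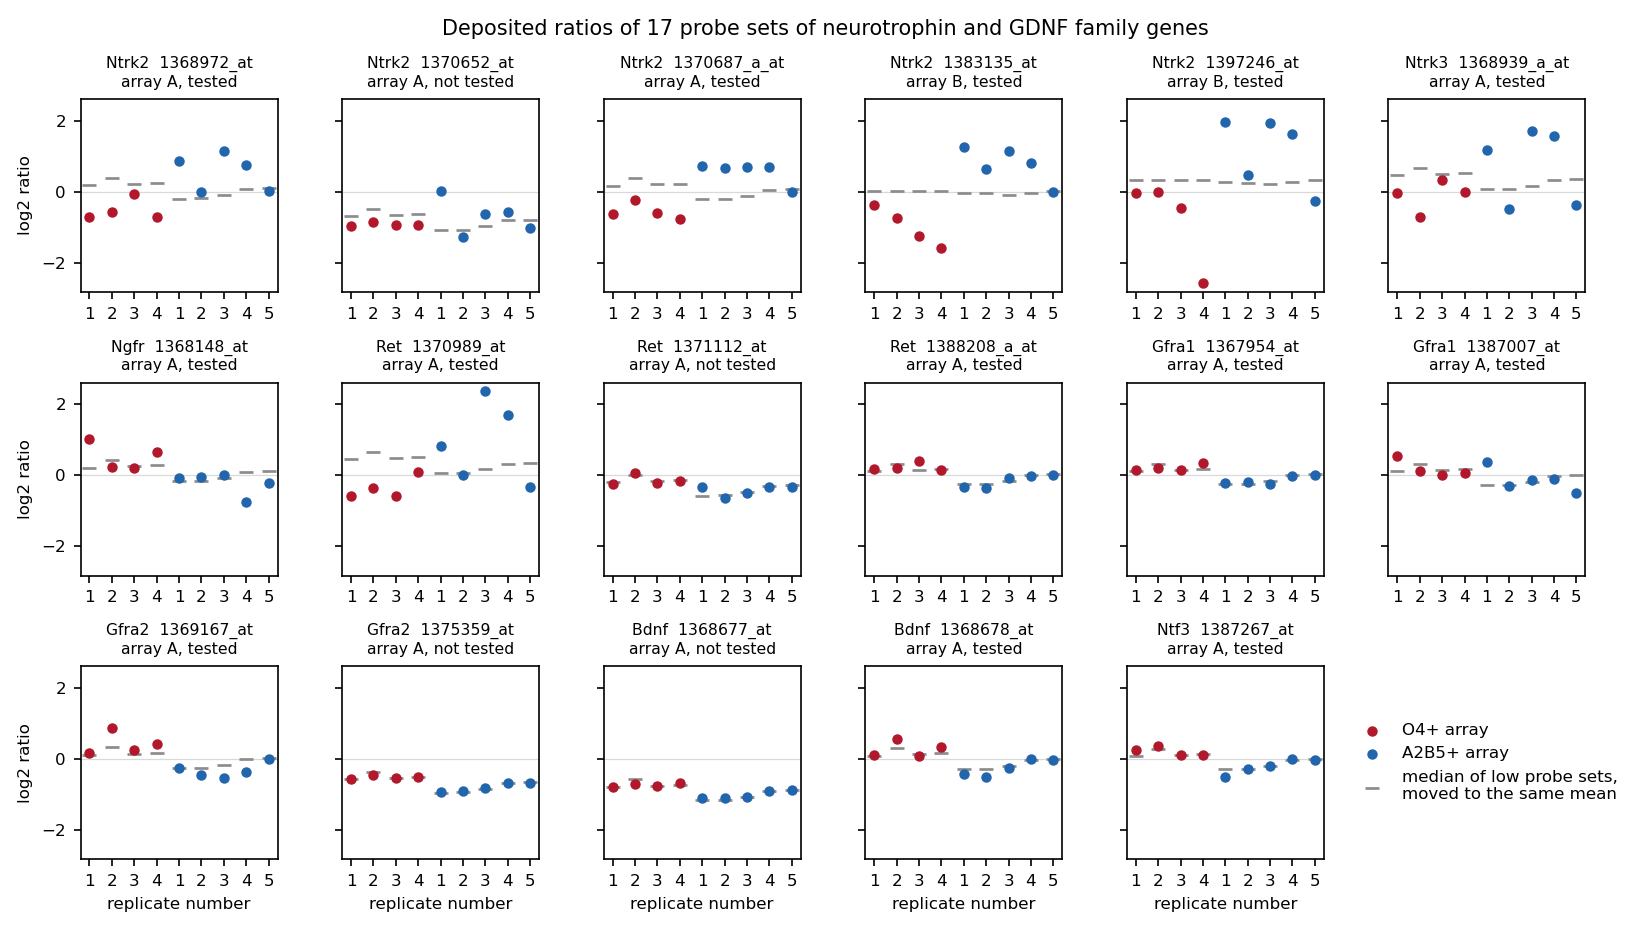
Log2 of the deposited ratio (vertical axis) of each of the 17 probe sets on the O4+ arrays (red) and the A2B5+ arrays (blue), by replicate number. Grey bars mark the median of the low probe sets of that array type, moved to the probe set's own mean; Bdnf, Ntf3, 1 Gfra1, 1 Gfra2 and 2 Ret probe sets lie close to the bars, and Ntrk2, Ntrk3 and the remaining Ret probe set depart from them.

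Ntrk2 had 5 probe sets, and 3 of the 4 tested were called lower in O4+ cells. The annotation does not say which of them measure the full-length receptor and which the truncated forms. Probe set 1370687_a_at had ratios of 0.648, 0.846, 0.667 and 0.593 in O4+ cells, against 1.646, 1.607, 1.612, 1.627 and 1.000 in A2B5+ cells. The populations did not overlap, and A2B5+ replicate 5 lay well below the other A2B5+ arrays. Its mean log2 ratio was -0.55 ± 0.22 (SD, n = 4) in O4+ cells and 0.56 ± 0.31 (SD, n = 5) in A2B5+ cells, a difference of -1.11 ± 0.18 (standard error of the limma fit, adjusted p = 0.0010). A2B5+ cells thus had 2.16 times the ratio of O4+ cells.

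The second array A probe set of Ntrk2, 1368972_at, gave a difference of much the same size. Its ratios were 0.610, 0.678, 0.968 and 0.608 in O4+ cells and 1.822, 1.000, 2.220, 1.705 and 1.025 in A2B5+ cells. Here both A2B5+ replicates 2 and 5 came close to the highest O4+ array, without overlap. The difference was -1.07 ± 0.27 (limma adjusted p = 0.0089). On array B, probe set 1383135_at had ratios of 0.767, 0.598, 0.425 and 0.333 in O4+ cells and 2.419, 1.573, 2.206, 1.744 and 1.000 in A2B5+ cells. The difference of -1.76 ± 0.31 (limma adjusted p = 0.0040) corresponded to a ratio 3.39 times as high in A2B5+ cells, again with no overlap. These 3 calls held under every alternative setting tried.

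The remaining Ntrk2 probe sets were less clear. On array B, 1397246_at had ratios of 0.973, 1.000, 0.729 and 0.168 in O4+ cells, against 3.945, 1.382, 3.858, 3.074 and 0.839 in A2B5+ cells. A2B5+ replicate 5 lay among the O4+ arrays, and the difference of -1.92 ± 0.66 was not called (adjusted p = 0.066; 95% confidence interval -3.42 to -0.42, unadjusted). Without that replicate the difference was -2.27 and passed (adjusted p = 0.035). Probe set 1370652_at was not tested. Its ratios were 0.516 to 0.551 in O4+ cells, and 0.414 to 0.678 in 4 of the A2B5+ arrays with 1.023 in replicate 1.

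**Figure D2:**
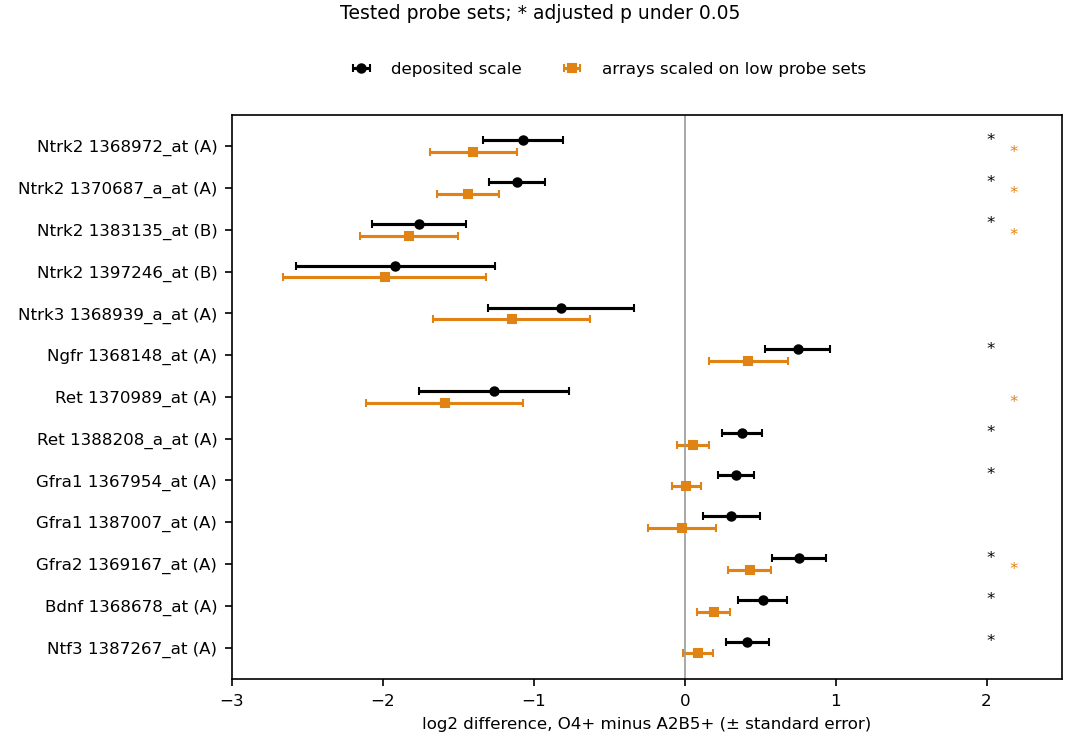
Log2 difference, O4+ minus A2B5+ (horizontal axis), with its standard error, for the 13 tested probe sets on the deposited scale (black) and with arrays scaled on low probe sets (orange); asterisks mark an adjusted p under 0.05. The 3 called Ntrk2 probe sets stay between -1.07 and -1.83 under both scales, while the called rises, 0.34 to 0.76 on the deposited scale, shrink to between 0.01 and 0.43.

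The TrkC gene Ntrk3 had 1 probe set, and its A2B5+ arrays disagreed with each other. Ratios were 0.978, 0.616, 1.270 and 1.000 in O4+ cells, against 2.249, 0.719, 3.304, 2.994 and 0.770 in A2B5+ cells. A2B5+ replicates 1, 3 and 4 lay above all O4+ arrays, and replicates 2 and 5 lay within the O4+ range. The difference of -0.82 ± 0.48 was not called (limma adjusted p = 0.18), with an unadjusted 95% confidence interval of -1.89 to 0.25. It was also not called after scaling on low probe sets (-1.15 ± 0.52, adjusted p = 0.12). With array weights, which count arrays that vary more for less, it passed (-1.12, adjusted p = 0.024).

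Ret, the kinase shared by the GDNF family receptors, had 3 probe sets that went different ways. Probe set 1370989_at had ratios of 0.668, 0.783, 0.670 and 1.070 in O4+ cells, against 1.768, 1.000, 5.157, 3.244 and 0.792 in A2B5+ cells. The same A2B5+ replicates, 1, 3 and 4, lay above all O4+ arrays, and the A2B5+ arrays spread more widely than the O4+ arrays (log2 SD 1.13, n = 5, against 0.32, n = 4). The difference of -1.26 ± 0.50 missed the threshold on the deposited scale (limma adjusted p = 0.057) and passed it after scaling on low probe sets (-1.59 ± 0.52, adjusted p = 0.040). It also passed without A2B5+ replicate 2 (-1.49, adjusted p = 0.045) or replicate 5 (-1.58, adjusted p = 0.020).

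The other Ret probe sets followed the low probe sets of the array. For 1388208_a_at the ratios were 1.123, 1.156, 1.329 and 1.105 in O4+ cells, against 0.802, 0.787, 0.952, 0.995 and 1.000 in A2B5+ cells. It was called higher on the deposited scale (0.38 ± 0.13, limma adjusted p = 0.039), its residual SD was 0.11, and the difference was 0.05 ± 0.11 after scaling on low probe sets (adjusted p = 0.73). The call was also lost with arrays centred on their medians (adjusted p = 0.17). Probe set 1371112_at, itself a low probe set by its median ratio, was not tested and had a residual SD of 0.10. Its ratios ran from 0.845 to 1.048 in O4+ cells and from 0.644 to 0.804 in A2B5+ cells.

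A2B5+ replicates 3 and 4, where Ntrk3 and Ret 1370989_at were highest, also had the highest means of marker lists of astrocytes and of neurons. Over 17 tested probe sets of astrocyte and radial glia markers on array A, the mean log2 ratio lay between -0.74 and -0.27 in O4+ arrays, and was 0.54, 0.20, 0.93, 0.75 and -0.01 in A2B5+ arrays 1 to 5. Over 17 tested probe sets of neuron and neuroblast markers it lay between -0.70 and -0.38 in O4+ arrays, and was 0.34, 0.30, 1.05, 0.86 and -0.25 in A2B5+ arrays 1 to 5. Replicates 3 and 4 were thus highest and replicate 5 lowest in both lists, as for Ret 1370989_at. Replicate 1, also high for Ntrk3 and that Ret probe set, lay close to replicate 2 in the neuron list. Microglial markers did not share this order, at -0.03, 0.87, 0.22, 0.66 and 0.78 in A2B5+ arrays 1 to 5, against -1.55 to 0.08 in O4+ arrays.

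Called falls outnumbered called rises, as for Ntrk2, in the astrocyte, neuron, microglial, mast cell and endothelial lists. Over all tested probe sets, 32.5% were higher and 14.7% lower on array A, and 9.93% and 13.8% on array B. After scaling on low probe sets these shares were 12.6% and 22.5%, and 8.41% and 15.6%. Of the tested astrocyte and radial glia probe sets, all on array A, 9 of 17 were lower in O4+ cells and 1 was higher (11 and 0 after scaling on low probe sets). Of the neuron and neuroblast probe sets on both array types, 9 of 19 were lower and 6 higher (10 and 2 after that scaling). On array A these were 9 and 4 of 17, and on array B 2 of 2 were higher. Microglial markers were lower in 9 of 10 tested probe sets, mast cell markers in 7 of 7, and endothelial and mural cell markers in 7 of 19, with none higher in these 3 lists. For meninges and fibroblasts 1 of 15 was higher and 1 lower, and for cholinergic and monoaminergic neurons 1 of 6 was higher and 0 were lower. Slc1a3, a glutamate transporter of astrocytes and radial glia, fell by 1.61 and 1.95 in its 2 tested probe sets. The water channel gene Aqp4 fell by 1.29 in 1 of 3 probe sets, and Gfap, the filament protein of astrocytes, was not called (-0.43, limma adjusted p = 0.26). Neuronal markers moved both ways. The neuronal tubulin Tubb3 fell by 1.80 in its tested probe set, and Gad1, which makes GABA, fell by 4.08 in its own. Dcx, a marker of neuroblasts, was not called, with differences of -1.09 and 0.31 in its 2 probe sets. The 6 called rises were in Elavl3, a neuronal RNA-binding protein (1.48 and 1.24), the neurofilament genes Nefm (1.80) and Nefl (0.78), the calcium-binding protein gene Calb2 (0.78) and Gad2 (0.34). Those of Elavl3 held after scaling on low probe sets, and the other 4 were lost. Pdgfra, the progenitor marker named above, had A2B5+ ratios of 4.924, 1.819, 4.470, 5.879 and 0.738, high in replicates 1, 3 and 4 as well (O4+ ratios 0.289 to 1.000). It was picked for this comparison after its values were seen. The part of these other cells in the Ntrk2, Ntrk3 and Ret differences was not tested, and in sorted pools fewer cells of a type and less RNA per cell cannot be told apart.

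**Figure D3:**
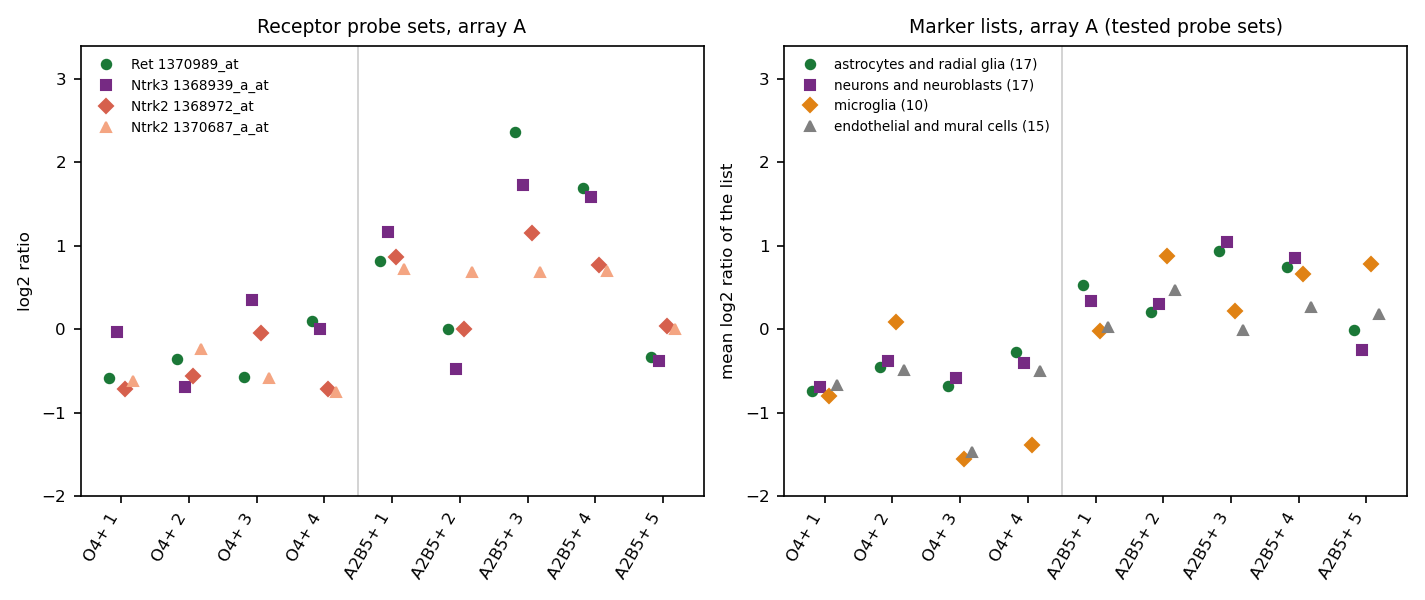
Left, log2 ratio of 4 receptor probe sets on each O4+ and A2B5+ array of array type A. Right, mean log2 ratio of tested probe sets of 4 marker lists on the same arrays, with the number of probe sets in brackets; Ret and the neuron and astrocyte lists are highest in A2B5+ replicates 3 and 4, where Ret reached ratios of 5.157 and 3.244.

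The p75 gene Ngfr was higher in O4+ cells on the deposited scale, and that rise was lost on both other scales. Its ratios were 2.020, 1.181, 1.163 and 1.566 in O4+ cells, against 0.949, 0.968, 1.000, 0.597 and 0.856 in A2B5+ cells. The populations did not overlap, with O4+ replicates 1 and 4 highest and A2B5+ replicate 4 lowest. The difference of 0.75 ± 0.21, or 1.68-fold, was called (limma adjusted p = 0.018). It was 0.58 with arrays centred on their medians (adjusted p = 0.078) and 0.42 ± 0.26 after scaling on low probe sets (adjusted p = 0.24). The residual SD of 0.46 lay above the mark for low probe sets, so the probe set varied between arrays beyond the shared pattern. Schwann cells and neural crest cells are known for p75, and of 5 tested probe sets of their markers 4 were higher in O4+ cells and 1 lower. All 5 were on array A, where 32.5% of all tested probe sets were higher and 14.7% lower. The list mean lay between 1.29 and 2.39 in O4+ arrays, highest in replicates 1 and 4 as for Ngfr, and between -0.86 and 0.09 in A2B5+ arrays. The same order is not particular to this list. O4+ replicates 1 and 4 were also highest in the oligodendrocyte lineage list of array A, at 2.74 and 2.75 against 2.48 and 2.62 in replicates 2 and 3. Of its measured genes the list shares Sox10 with the oligodendrocyte lineage list. Prx and Pmp22, myelin genes of Schwann cells, rose by 3.44 and, in 2 probe sets, by 1.83 and 2.73. Egr2, also on the list, fell by 0.98 in its tested probe set (limma adjusted p = 0.026). Its difference was -1.30 after scaling on low probe sets. The probe sets of Erbb3 and Foxd3 were not tested. The part of Schwann and neural crest cells in the Ngfr difference was not tested.

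Gfra2, the neurturin coreceptor, had a probe set whose rise held under each scale. Ratios of 1369167_at were 1.121, 1.847, 1.193 and 1.345 in O4+ cells, against 0.831, 0.726, 0.694, 0.773 and 1.000 in A2B5+ cells. The populations did not overlap, and O4+ replicate 2 stood above the other O4+ arrays. The difference was 0.76 ± 0.18, or 1.69-fold (limma adjusted p = 0.0068), with 0.59 after centring (adjusted p = 0.016) and 0.43 ± 0.14 after scaling on low probe sets (adjusted p = 0.041). The second Gfra2 probe set, 1375359_at, was not tested. Its ratios of 0.679 to 0.729 in O4+ cells and 0.528 to 0.630 in A2B5+ cells left a residual SD of 0.04, below the median of the low probe sets. It is itself a low probe set by its median ratio.

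Gfra1, the GDNF coreceptor, gave no difference that lasted. Probe set 1367954_at had ratios of 1.105, 1.153, 1.107 and 1.264 in O4+ cells, against 0.866, 0.873, 0.848, 0.997 and 1.000 in A2B5+ cells. The values did not overlap, and the difference of 0.34 ± 0.12 was called (limma adjusted p = 0.041), but it was 0.01 ± 0.10 after scaling on low probe sets (adjusted p = 0.94) and its residual SD was 0.08. Centring also ended the call (0.17, adjusted p = 0.21). Probe set 1387007_at had ratios of 1.450, 1.083, 1.000 and 1.050 in O4+ cells, against 1.292, 0.811, 0.920, 0.930 and 0.713 in A2B5+ cells. Replicate 1 was highest in both populations, the values overlapped, and the difference of 0.31 ± 0.19 was not called (adjusted p = 0.19; unadjusted 95% confidence interval -0.11 to 0.73).

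The ligand genes Bdnf and Ntf3 varied little beyond the pattern of low probe sets. Bdnf probe set 1368678_at had ratios of 1.077, 1.488, 1.066 and 1.258 in O4+ cells, against 0.747, 0.702, 0.842, 1.000 and 0.980 in A2B5+ cells. The difference of 0.52 ± 0.16 was called on the deposited scale (limma adjusted p = 0.026). It was 0.35 after centring (adjusted p = 0.073) and 0.19 ± 0.11 after scaling on low probe sets (adjusted p = 0.20), with a residual SD of 0.15. The second Bdnf probe set, 1368677_at, is itself a low probe set by its median ratio and was not tested. It had ratios of 0.582 to 0.621 in O4+ cells and 0.465 to 0.542 in A2B5+ cells and a residual SD of 0.056. Ntf3 had ratios of 1.196, 1.277, 1.086 and 1.087 in O4+ cells, against 0.703, 0.822, 0.873, 1.000 and 0.981 in A2B5+ cells. Its rise of 0.42 ± 0.14 was called (adjusted p = 0.035), and was 0.25 after centring (adjusted p = 0.13) and 0.09 ± 0.10 after scaling on low probe sets (adjusted p = 0.52). On the other scales neither ligand gene was called, and a ratio so close to the low probe sets does not show at what level a transcript was present.

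Other genes of the pathway were read from 6 lists with 104 genes, of which 86 had a probe set and 69 a tested one. Of 115 tested probe sets, 26 were higher in O4+ cells and 28 lower, and after scaling on low probe sets 8 were higher and 35 lower. On array A 26 of 84 were higher and 18 lower, beside 32.5% and 14.7% of all tested probe sets. Array B gave 0 rises and 10 falls among 31, beside 9.93% and 13.8%. After that scaling array A gave 8 rises and 24 falls, beside 12.6% and 22.5% of all tested probe sets. Array B then gave 11 falls, beside 15.6%. The median difference of the 115 was 0.12, or -0.13 after that scaling. The higher count fell to 16 without A2B5+ replicate 1 or 2 and to 17 without O4+ replicate 1.

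None of the other ligand genes was called by limma. Gdf15, Manf and Pspn had a tested probe set each, with differences of -1.13 ± 1.49, 0.07 ± 0.13 and 0.26 ± 0.16 (adjusted p = 0.55, 0.68 and 0.19). Gdnf, Nrtn and Ntf4 had a probe set each that was not tested, and Gdnf read 0.903 to 1.077 in O4+ cells and 0.630 to 0.842 in A2B5+ cells.

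Among the other receptors and coreceptors, 3 of 23 tested probe sets were higher and 8 lower, and after scaling on low probe sets 0 were higher and 9 lower. On array A these were 3 and 7 of 20, beside 32.5% and 14.7% of all tested probe sets. After that scaling they were 0 and 8 of 20, beside 12.6% and 22.5%. Sorl1, a sorting receptor that binds GDNF and TrkB, accounted for 6 of the 8 falls, from 6 of its 8 tested probe sets. Its probe set 1393933_at had ratios of 0.374, 0.739, 0.409 and 0.588 in O4+ cells, against 4.626, 2.932, 5.729, 6.940 and 1.000 in A2B5+ cells, a difference of -2.79 ± 0.50 (limma adjusted p = 0.0016). On array B, Sorl1 1394786_at fell by 2.60 with no overlap (adjusted p = 1.0e-04). Lrig1, which restrains Ret and other receptor kinases, fell by 1.10 ± 0.39 (adjusted p = 0.039) with ratios of 0.551 to 1.000 in O4+ cells and of 1.104, 1.211, 3.065, 2.891 and 0.867 in A2B5+ cells. Nradd, a relative of p75, fell by 0.96 ± 0.36 in 1 of 3 probe sets (adjusted p = 0.048). The called rises were those of Lingo1, a partner of p75 in the Nogo receptor complex (0.90 ± 0.27), Ncam1, an alternative receptor of GDNF (0.82 ± 0.29 in 1 of 2 tested probe sets), and Gfra4, the coreceptor of persephin (0.40 ± 0.15). All 3 rises were lost after scaling on low probe sets (adjusted p = 0.16, 0.24 and 0.62), and the Gfra4 probe set is itself a low probe set. Gfra4 passed the filter only through the 4 O4+ arrays, at ratios of 1.011 to 1.422 against 0.741 to 0.952 in A2B5+ arrays. Its call is therefore not independent of the filter and carries no weight.

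In neurotrophin processing, 3 of 11 tested probe sets were higher and 1 lower, all on array A, where 32.5% of all tested probe sets were higher and 14.7% lower. After scaling on low probe sets 1 was higher and 3 lower, beside 12.6% and 22.5% of all tested probe sets. Pcsk6, a proprotein convertase, rose most, with ratios of 7.101, 4.580, 4.794 and 7.444 in O4+ cells and 1.000, 0.501, 0.485, 0.509 and 0.243 in A2B5+ cells, a difference of 3.56 ± 0.34 (limma adjusted p = 3.3e-05). Plat, the tissue plasminogen activator whose product plasmin cleaves proBDNF, fell by 1.87 ± 0.26 (adjusted p = 3.7e-04). The rises of Pcsk7 (0.44) and Plg (0.35) were lost after scaling on low probe sets.

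Among adaptors of the kinases 8 of 34 tested probe sets were higher and 6 lower (3 and 8 after scaling on low probe sets). On array A these were 8 and 4 of 23, close to the shares of 32.5% and 14.7% over all tested probe sets. After that scaling array A gave 3 and 5 of 23, beside 12.6% and 22.5%, and array B 3 falls among 11, beside 15.6%. The largest called rises were those of the docking protein Gab1 (1.49 ± 0.14), the kinase Abl1 (1.40 ± 0.23) and the Trk substrate Frs3 (1.36 ± 0.26). Grb10 fell by 2.47 ± 0.56 and Dok5 by 1.63 ± 0.26, each in 1 of 2 tested probe sets, and Sh2b3 fell by 1.47 ± 0.21. Grb10 binds Ret and the insulin receptor, Dok5 binds Ret, and Sh2b3 belongs to a family of adaptors that bind Trk receptors. For adaptors of p75, 6 of 20 tested probe sets were higher and 1 lower (1 and 1 after that scaling). The 6 were among 12 on array A, where 32.5% of all tested probe sets were higher. The 1 fall was among 8 on array B, where 13.8% of all were lower. After that scaling the rise was on array A (12.6% of all were higher) and the fall on array B (15.6% of all were lower). Zfp110, a zinc finger protein that binds p75, rose by 1.02 ± 0.22, Ndn (necdin) by 0.97 ± 0.22 and Rhoa in 1 probe set by 0.79 ± 0.28, of which Zfp110 held after scaling on low probe sets (adjusted p = 0.035). Ripk2, a kinase recruited to p75, fell by 2.00 ± 0.26 on array B.

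Genes that respond to neurotrophins or GDNF, most of which respond to other growth factors too, had 12 of 24 tested probe sets lower and 6 higher (14 and 3 after scaling on low probe sets), with a median of -0.80. On array A 6 of 15 were higher and 6 lower, and array B gave 0 rises and 6 falls among 9, beside the shares over all tested probe sets given above. After that scaling array A gave 3 rises and 8 falls, beside 12.6% and 22.5%, and array B 6 falls, beside 15.6%. The largest called falls were in Etv1, by 2.60 ± 0.34 and 2.40 ± 0.28 in 2 of its 4 probe sets, and Etv4, by 2.40 ± 0.58 in 1 of 2, both transcription factors of the ETS family. Etv4 had ratios of 0.431 to 0.668 in O4+ cells and of 1.765, 1.843, 7.393, 6.050 and 1.000 in A2B5+ cells, highest in replicates 3 and 4. Homer1, a scaffold protein whose short form is induced by BDNF in neurons, gave the 3 largest rises, from 1.81 ± 0.36 to 2.29 ± 0.27, and all 5 of its probe sets were called higher, of which those 3 calls held after scaling on low probe sets and 2 were lost.

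The genes whose log2 ratios were most like each member over the 9 arrays of a type were named as a description, since they share the arrays, their scale and the difference between populations. Ret 1370989_at was most like Shisa9 (Pearson r = 0.979) and Slc1a3 (0.978). Ntrk3 was most like Phc1 (0.971) and Slc7a3 (0.970), and Ntrk2 1397246_at on array B was most like Zfp275 (0.977) and Atp11b (0.975). Ngfr was most like Cdr2 (0.935) and Hspa12a (0.933), and Gfra1 1387007_at most like Hsf2 (0.924) and Eef1a1 (0.870). The leading matches of Gfra2 1369167_at were Atp6v0b (0.989) and Fahd2a (0.988), and of Bdnf 1368678_at Ugt2b15 (0.999) and Nrg1 (0.997). For Ntf3 they were Myh1 (0.988) and 1700020N15Rikl (0.987).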

How the data were processed

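Total RNA of the sorted cells was labelled with biotin and hybridised to 2 array types, giving 18 arrays. The authors deposited linear ratios per probe set. Per the submitters' processing notes GCRMA, a summary method for Affymetrix arrays, was used; the step from there to ratios is not stated in the labels. Log2 ratios were compared between O4+ and A2B5+ arrays in R 4.3.3 by a two-sided moderated test (limma 3.58.1) fitted once per array type, with Benjamini-Hochberg adjustment over the 13098 and 11136 probe sets tested. No offset was added, and 57 control probe sets per type were left out. The number of arrays limits the precision.

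The members and lists were chosen with earlier results of these data known. Genes are named by the platform annotation. Every member probe set is described, with every called ligand or receptor probe set and the 3 largest called rises and falls of each other list; likeness names the 2 genes with the highest correlation to each member's most variable tested probe set. The fit was tested on simulated data. Alternatives were centring, scaling on low probe sets, other filters, a variance trend, array weights, a replicate block and leaving out each replicate. No pair of arrays was identical. On 100 shared probe sets the O4+ replicate numbers matched across array types in 0 of 4 samples and the A2B5+ numbers in 5 of 5, so values of both types were not joined by number. P-values set the difference between populations against the spread between replicates, in which litter and array effects cannot be separated.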

Additional observations from a re-analysis of the deposited data

Results flagged for a closer look

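In Ntrk2 probe set 1370687_a_at, A2B5+ replicate 5 stood apart from its group, with a ratio of 1.000 against 1.607 to 1.646 in the other A2B5+ arrays. Its gap to the nearest array was 0.952 of the group's whole range on the log2 scale. Among 34 groups of arrays examined this way 1 stood out, where chance gives about 1 in 20. Without that replicate the fall in O4+ cells was larger, at -1.25, and still called by limma (adjusted p = 1.8e-04).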

How the results depend on the processing

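The counts of called probe sets among the 8 genes were 6 higher and 3 lower on the deposited scale. Centring gave 1 higher, scaling on low probe sets 1 higher, and leaving out 1 replicate 2 to 6 higher and 3 to 5 lower. Array weights gave 7 higher and 6 lower of the 13 tested, so every tested member probe set was called under them. For the other pathway genes, 26 higher and 28 lower became 12 higher with centring, 8 higher with scaling on low probe sets, 49 higher with no filter on low ratios, which tests 147 probe sets in place of 115, and 16 to 28 higher and 24 to 28 lower with 1 replicate left out. Gfra1 1387007_at turned to -0.017 after scaling on low probe sets. The causes were not tested. Replicate numbers shared by O4+ and A2B5+ samples did not pair them, with correlations of deviations from 0.02 to 0.31 on array A and from -0.20 to 0.24 on array B. Of 8 O4+ samples 2 correlated best with their own number. With the replicate block the members gave 3 higher and 5 lower, and the pathway genes 26 and 29; it called Ntrk3 (-1.10, limma adjusted p = 0.0087) and Ret 1370989_at (-1.58, adjusted p = 0.012), and the rises of Ret 1388208_a_at, Gfra1 1367954_at and Ntf3 were lost. The 3 called Ntrk2 probe sets kept direction and call under all alternatives. The variance trend changed no member's call. The median filter changed none either, but it kept the same 13 member probe sets with the same differences, so it tests little. The number of arrays, and the unknown scale of the deposited ratios, limit what small differences show.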

Other observations

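Gdf15, a stress-induced ligand of the GDNF receptor family, had the widest spread of the ligand genes among A2B5+ replicates. Its ratios were 1.000, 3.416, 0.439 and 0.258 in O4+ cells, against 10.11, 6.751, 0.135, 0.153 and 10.7 in A2B5+ cells. A2B5+ replicates 1, 2 and 5 were high and replicates 3 and 4 low, whereas Ret 1370989_at was highest in replicates 3 and 4. Gdf15 was singled out after its values were seen.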
